A study of Rattus norvegicus with 14 samples.

Results

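Fat cells lie in the connective tissue around the dorsal root ganglia, and 8 genes that fat cells use were followed here as a measure of fat carried into the ganglion samples. They were Adipoq, Plin1, Cidec, Cfd, Lep, Fabp4, Pck1 and Lpl, chosen by symbol because they are widely used adipocyte genes. All 8 had a row among the 30562 genes of the count and TPM tables (TPM is a transcript's share of the library, corrected for its length), and 7 of the 8 passed the filter on low counts that left 17035 genes for testing. Lep was the one that did not pass.

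Adipocytes store triglyceride in a single large droplet and release it as fatty acids and glycerol when hormones call for it. Perilipin 1 (Plin1) coats the droplet and gates lipolysis, and Cidec joins small droplets into large ones. Adipocytes also secrete hormones: adiponectin (Adipoq) acts on liver and muscle, and leptin (Lep) acts on the brain. Cfd encodes adipsin, a protease of the alternative complement pathway that in the mouse is made by fat and by sciatic nerve. Lpl, the lipoprotein lipase, frees fatty acids from circulating lipoproteins, Fabp4 carries fatty acids inside the cell, and Pck1 makes the glycerol backbone for new triglyceride. Fabp4 is also made by capillary endothelium and macrophages, Lpl by muscle and macrophages, and Pck1 by liver and kidney, so the members are not equally specific to fat.

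RNA came from the L2-L5 dorsal root ganglia, which hold the cell bodies of sensory neurons, of 7 male wild-type rats. In each rat the extensor digitorum longus, a leg muscle, had been grafted to the saphenous nerve of one hindlimb, and the other hindlimb was not operated on, so each rat gave a surgical and a control library. The 14 libraries formed 4 groups: 4 surgical and 4 control libraries at 8 weeks after the operation (rats C, D, G and H), and 3 surgical and 3 control libraries at 6 weeks (rats A, B and E). All groups, controls included, came from operated animals, so the control side is not ganglia of an unoperated rat, and age was not used here. Total estimated counts per library ran between 18489118 and 28237574. The summed level of 16 sensory neuron markers ran between 1884 and 28129 TPM, so neurons were present in every library, but at unequal levels. The lowest were the 6-week libraries of the rat A surgical side (1884 TPM) and the rat B control side (2999 TPM), against a median of 18038 TPM. In these bulk samples, fewer cells of a type and less RNA per cell cannot be told apart.

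Several libraries stood apart in ways that touch the results below. Summed over 11 skeletal muscle genes, the surgical library of rat C had 32817 TPM and the control library of rat H had 6218 TPM. The surgical library of rat E had 1475 TPM, and the lowest library had 71.0 TPM. Summed over 10 spinal cord genes, the surgical library of rat B had 924 TPM and the lowest library had 5.82 TPM. Among the fat cell genes, the control library of rat G stood apart, as the values below show.

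Adipoq, Plin1 and Cidec share the library in which they are highest in TPM, as do Lep, Pck1 and Fabp4. The promoters of Adipoq, Plin1 and Cidec are shown first. Each runs from 250 bases before to 50 bases after the gene's start on the minus strand of the GRCr8 build, from RefSeq, at chr11:91240120-91240419 for Adipoq, chr1:143086099-143086398 for Plin1 and chr4:148137066-148137365 for Cidec. Capitals mark CCAAT or its reverse complement.
Adipoq: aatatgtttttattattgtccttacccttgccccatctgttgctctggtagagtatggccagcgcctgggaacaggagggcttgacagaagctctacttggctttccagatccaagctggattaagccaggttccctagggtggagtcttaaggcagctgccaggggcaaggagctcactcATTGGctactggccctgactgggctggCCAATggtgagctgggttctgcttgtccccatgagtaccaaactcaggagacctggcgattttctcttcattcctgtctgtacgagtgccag
Plin1: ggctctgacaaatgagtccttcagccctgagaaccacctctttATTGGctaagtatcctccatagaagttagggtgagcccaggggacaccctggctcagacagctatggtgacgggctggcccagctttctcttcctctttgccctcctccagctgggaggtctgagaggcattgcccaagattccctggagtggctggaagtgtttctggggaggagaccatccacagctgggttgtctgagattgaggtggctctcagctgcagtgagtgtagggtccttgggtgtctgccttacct
Cidec: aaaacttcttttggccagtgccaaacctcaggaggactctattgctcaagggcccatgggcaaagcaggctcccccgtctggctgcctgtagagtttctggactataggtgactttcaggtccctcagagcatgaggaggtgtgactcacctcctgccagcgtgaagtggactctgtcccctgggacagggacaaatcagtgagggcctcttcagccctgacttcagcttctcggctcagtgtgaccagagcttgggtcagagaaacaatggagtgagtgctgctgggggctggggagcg

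RefSeq promoters of 6 of the 8 members were at hand, all but those of Fabp4 and Lpl. Searched on both strands, CCAAT occurred in 3 of the 6, those of Adipoq, Plin1 and Lep, and in 37.5% of all 33469 promoters of the same length. Adipoq carried it at 42 bases before the start on the gene's strand and at 69 bases before the start on the other strand, and Plin1 carried it at 207 bases before the start on the other strand. AGGTCA, the core element bound by nuclear receptors such as the PPAR and RXR pair that drives fat cell genes, occurred only in the Pck1 promoter among the 6, at 144 bases before the start, and in 16.2% of all promoters. A direct repeat of AGGTCA with 1 base between, which contains that element, was found in 0 of the 6 and in 0.0538% of all promoters, and TATAAA in 0 of the 6 and in 14.2%. These matches describe the letters of this window only.

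Adipoq, the adiponectin gene, was low in all libraries but one. At 8 weeks it had 2.35, 2.65, 0.223 and 0.306 TPM in the surgical libraries of rats C, D, G and H, against 2.15, 1.24, 23.4 and 0.773 TPM in their control libraries. At 6 weeks it had 0.363, 0.602 and 0.0961 TPM in the surgical libraries of rats A, B and E, against 0.422, 1.25 and 0.845 TPM in the controls. One library, the control of rat G, was far above all others, with 494 counts where the other 13 libraries had 1 to 46, and the rest of the surgical and control values overlapped at 8 weeks and at 6 weeks.

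Lep was near the limit of detection in every library but one. At 8 weeks it had 0.10, 0.0999, 0.0307 and 0.0356 TPM in the surgical libraries of rats C, D, G and H, against 0.170, 0.0141, 1.03 and 0 TPM in the controls. At 6 weeks it had 0.0806, 0.0653 and 0.0386 TPM in the surgical libraries of rats A, B and E, against 0.10, 0.0626 and 0.0491 TPM in the controls. The control library of rat G held 68 counts of this hormone and the other 13 held 0 to 9. The 0 of the rat H control allows up to 3 counts, or 0.137 CPM (counts scaled to the library total), for counting error only.

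Cfd was the most or the next most abundant of the 8 and had a different outlying library. At 8 weeks it had 182, 29.1, 33.2 and 17.3 TPM in the surgical libraries of rats C, D, G and H, against 19.9, 40.1, 51.5 and 37.0 TPM in the controls. In the rats sampled at 6 weeks it had 58.9, 66.0 and 22.0 TPM in the surgical libraries of rats A, B and E, against 58.3, 74.5 and 25.8 TPM in the controls. The highest value was that of the surgical library of rat C, and the control library of rat G ranked only 6 from the top among the 14.

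The droplet genes Plin1 and Cidec were also highest in the rat G control. Between the sides, Plin1 moved opposite to Adipoq in 4 of 7 rats and Cidec in 1 of 7, in log2 CPM. Plin1 at 8 weeks had 0.253, 0.560, 0.316 and 0.244 TPM in the surgical libraries of rats C, D, G and H, against 0.767, 0.339, 3.98 and 0.205 TPM in the controls. At 6 weeks Plin1 had 0.383, 0.260 and 0 TPM in the surgical libraries of rats A, B and E, against 0.0760, 0.0887 and 0.145 TPM in the controls. Control values at 8 weeks all lay above those at 6 weeks, while the surgical values overlapped the control values at both times. Plin1 counts were low, between 0 and 23 outside the rat G control, which had 154, and the 0 of the rat E surgical library allows up to 0.162 CPM.

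Cidec had the same high library. At 8 weeks it had 0.933, 0.848, 0.156 and 0.469 TPM in the surgical libraries of rats C, D, G and H, against 1.08, 0.399, 6.55 and 0.241 TPM in the controls. At 6 weeks it had 0.0914, 0.111 and 0.314 TPM in the surgical libraries of rats A, B and E, against 0.130, 0.521 and 0.463 TPM in the controls. Surgical and control libraries overlapped at both times.

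Pck1, the enzyme of glycerol synthesis in fat, was high in the same library. It had 0.184, 0.555, 0 and 0.0456 TPM in the surgical libraries of rats C, D, G and H at 8 weeks, against 0.217, 0.290, 5.05 and 0.106 TPM in the controls. The 6-week rats A, B and E had 0.706, 0.167 and 0.223 TPM in the surgical libraries, against 0.202, 0.492 and 0.126 TPM in the controls. Rat G thus gave both the highest value, on its control side, and the lowest, a 0 on its surgical side that allows up to 0.123 CPM.

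Fabp4 and Lpl, the genes of fatty acid handling, were abundant everywhere. Fabp4 at 8 weeks had 102, 18.4, 29.4 and 22.0 TPM in the surgical libraries of rats C, D, G and H, against 49.8, 32.1, 153 and 40.8 TPM in the controls. At 6 weeks it had 45.1, 74.8 and 40.7 TPM in the surgical libraries of rats A, B and E, against 40.9, 93.4 and 28.5 TPM in the controls. The highest libraries were thus the rat G control and the rat C surgical library, and that rat C library was also the highest for Cfd.

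Lpl varied least. At 8 weeks it had 6.84, 4.41, 2.87 and 4.16 TPM in the surgical libraries of rats C, D, G and H, against 7.43, 3.57, 7.28 and 11.1 TPM in the controls. Rats A, B and E at 6 weeks had 9.96, 5.20 and 6.80 TPM in the surgical libraries, against 7.14, 9.67 and 5.98 TPM in the controls. The highest in TPM was the rat H control, which had a high muscle sum of 6218 TPM. The rat G control ranked 5 from the top. The rat C surgical library, with the highest muscle sum of 32817 TPM, ranked 7 for Lpl. In log2 CPM, Lpl was highest in the rat B control, at 5.61, and that library had the lowest muscle sum, 71.0 TPM. The part of muscle in the Lpl values was not tested.

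**Figure D1:**
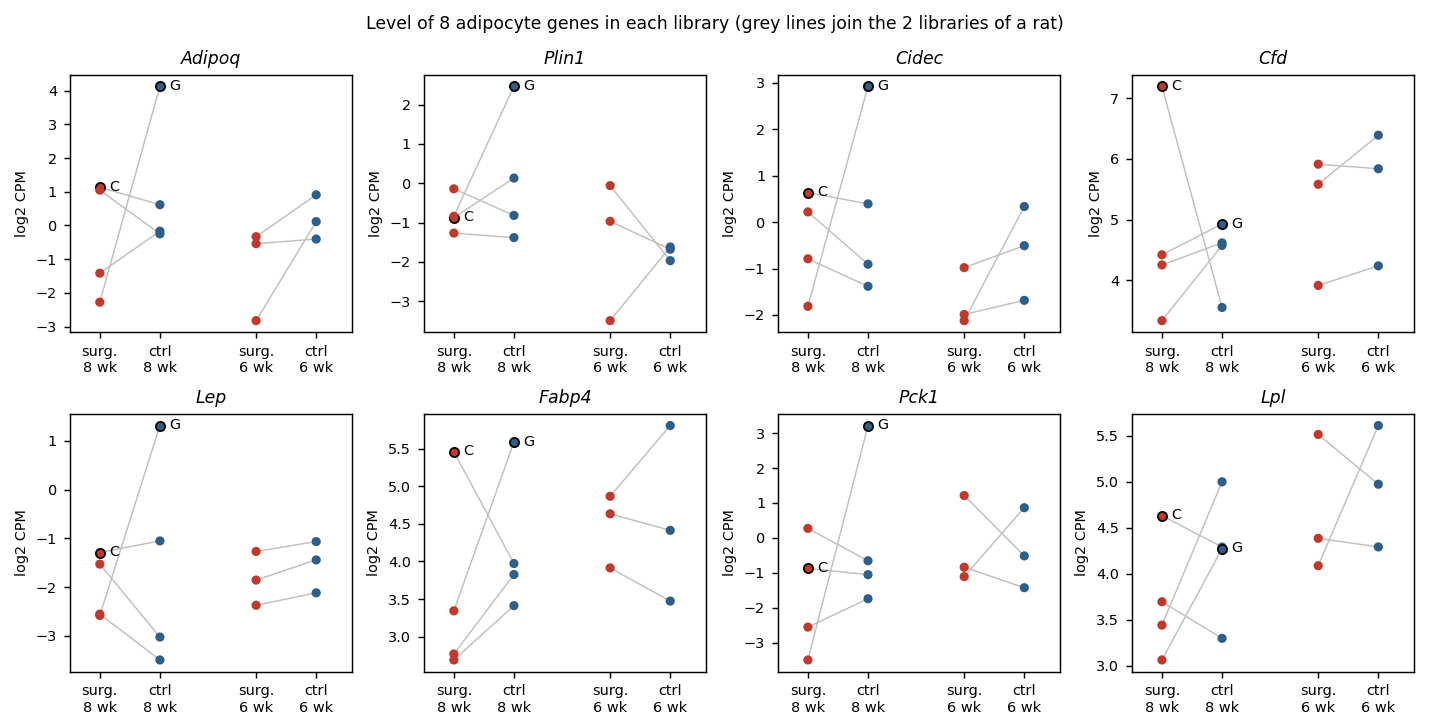
Level of each of the 8 genes in the 14 libraries, as log2 CPM (prior count 2) on the y axis; red points are surgical and blue points control libraries at 8 and 6 weeks, and grey lines join the 2 libraries of a rat. The labelled rat G control point is the highest for Adipoq, Plin1, Cidec, Lep and Pck1, and the labelled rat C surgical point is the highest for Cfd.

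In order of median TPM over the 14 libraries the 8 genes ran Fabp4 (40.8), Cfd (38.6), Lpl (6.82), Adipoq (0.809), Cidec (0.431), Plin1 (0.257), Pck1 (0.210) and Lep (0.0640). The ranges of neighbours in that order overlapped, except that the lowest value of Cfd (17.3 TPM) lay above the highest of Lpl (11.1 TPM) and the lowest of Lpl (2.87 TPM) lay above every value of Adipoq but that of the rat G control. Cfd, Fabp4 and Lpl together made 84.1% to 99.2% of the summed TPM of the 8 in a library. A sum over all 8 is therefore mostly a measure of these 3 genes. The sum of Adipoq, Plin1 and Cidec was 34.0 TPM in the rat G control and between 0.410 and 4.06 TPM, with a median of 1.22 TPM, in the other 13 libraries.

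The control library of rat G was the highest of the 14 in TPM for 6 of the 8 genes, all but Cfd and Lpl. It was also the highest for 22.0% of all 17035 genes tested. It stood at least 2-fold above every other library for 5 of the 8, all of those 6 but Fabp4. Adipoq there was 8.84 times, Pck1 7.15 times, Cidec 6.09 times and Plin1 5.19 times the next highest library. In log2 CPM, Fabp4 was at 5.59 there and highest, at 5.81, in the control library of rat B. Over the 17035 genes tested, 9 genes, or 0.0528%, were at least 2-fold above every other library there, and 4 of the 9 were members. The other 5 were named by that fold: Thrsp, a regulator of fatty acid synthesis in fat and liver (12.9 TPM against 1.33 TPM in the next library), Pnmt, the enzyme that makes adrenaline (7.06 TPM against 0.877 TPM), the acetylcholine receptor subunit Chrne (21.3 TPM against 8.70 TPM), Gdpd3 and Rims4. Since the library was picked for its high members, these values are a description with no test.

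**Figure D2:**
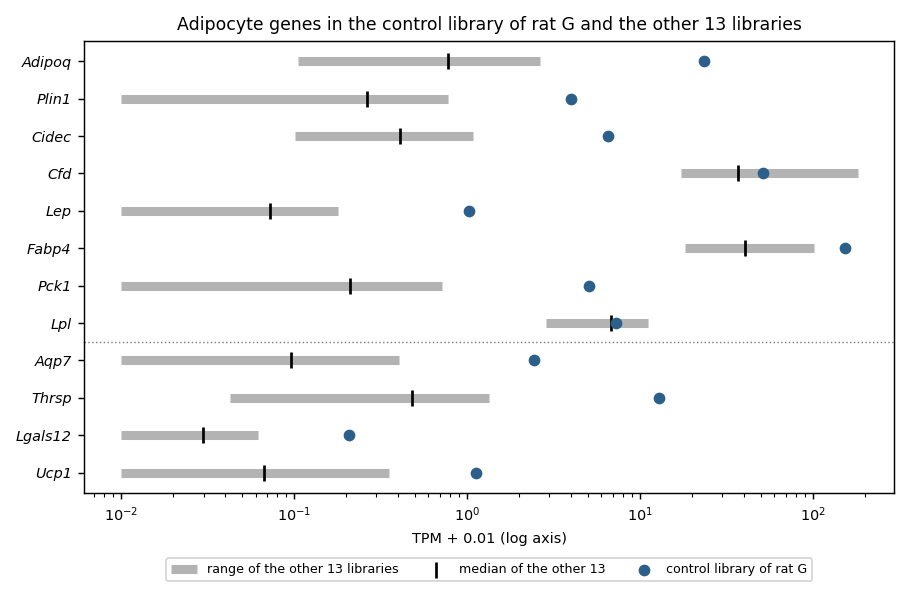
TPM plus 0.01 on a log axis for the 8 genes (above the dotted line) and the 4 other adipocyte genes at least 2-fold higher in the rat G control than in any other library (below it). Blue points are the rat G control, grey bars the range and black ticks the median of the other 13 libraries; the blue point lies beyond the grey bar for all genes shown but Cfd and Lpl.

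Other adipocyte genes were highest in that library about as often as genes at large. The lists of hormones, droplet, uptake, synthesis, lipolysis, transcription factor and brown fat genes held 81 entries beside the members, of which 77 were matched to the tables, and Cd36, Cox8b, Mlxipl and Pcx were not analysed here. Of the 77, 18 had their highest value in the rat G control, and of the 70 that passed the count filter 15 did, near the 22.0% of all tested genes. Of the 70, 1 was at least 2-fold above every other library, Thrsp. Outside the filter 3 more were, the glycerol channel Aqp7 (2.43 TPM against 0.396 TPM in the next library), Ucp1, the uncoupling protein of brown fat (1.11 TPM against 0.345 TPM), and Lgals12 (0.199 TPM against 0.0521 TPM). They held only 54, 23 and 11 counts in the rat G control and at most 8, 8 and 3 elsewhere. No share over the genes outside the filter is given for these 3. Lipe, the hormone-sensitive lipase, had 25.95 TPM there and at most 13.3 TPM elsewhere. Summed by list, and without the members, the rat G control was the highest library for fatty acid uptake and glycerol transport (990 TPM against at most 818 TPM elsewhere), lipolysis (207 against at most 199 TPM) and the other adipocyte genes (10699 against at most 8964 TPM). Fabp5 made 870 of those 990 TPM, and Sncg, also made by sensory neurons, 10117 of the 10699 TPM. The sums of the hormone, droplet, synthesis, transcription factor and brown fat lists lay within the range of the other libraries. That of brown fat was 36.7 TPM in a range of 17.5 to 37.6 TPM. In mean log2 CPM, uptake was at 4.48 in the rat G control and 4.56 in the rat C surgical library. Lipolysis was at 4.14 in the rat G control and 4.25 in the rat A surgical library. The other adipocyte genes were highest, at 4.73, in the rat C surgical library. Fatty acid synthesis was highest in the rat G control, at 7.17 against 6.72 in the rat C control.

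The surgical library of rat C held the highest value for 16 of the same 77 genes, near the 17.7% of all tested genes that were highest there, and 7 were at least 2-fold above every other library. These were Plin4 (11.4 TPM against 2.42 TPM in the next), Adig (5.96 against 2.94 TPM), Gpihbp1 (4.70 against 1.78 TPM), the glucose transporter Slc2a4 (23.7 against 7.75 TPM), the carbonic anhydrase Car3 (530 against 205 TPM), Tmem182 (4.44 against 0.977 TPM) and Cpt1b (9.13 against 3.28 TPM). Slc2a4, Car3, Tmem182 and Cpt1b are also skeletal muscle genes, and this library had the highest muscle sum. For these genes and for Plin4 the next library was the rat H control, with a muscle sum of 6218 TPM. For Adig and Gpihbp1 it was the rat B control and the rat D control. Among the members, Adipoq (2.35 TPM) and Cidec (0.933 TPM) ranked 3 from the top in the rat C surgical library, and Plin1 (0.253 TPM) ranked 8. Its fibroblast sum of 7077 TPM was also the highest of the 14, and its macrophage sum of 390 TPM ranked 2 from the top, against 157 TPM in the control library of the same rat. In mean log2 CPM the fibroblast genes were not highest there, at 7.64 against 8.92 in the rat A surgical library and 8.37 in the rat B control. The part of muscle, fibroblasts and macrophages in the Cfd and Fabp4 values of the rat C surgical library was not tested. In this library 486 genes, or 2.85%, were at least 2-fold above every other library, against 9 genes in the rat G control.

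Markers of other tissues in the rat G control were mostly within the range of the other libraries. Its muscle sum was 187 TPM and its spinal cord sum 7.73 TPM, both in the lower part of their ranges. Its macrophage sum of 172 TPM lay in the range of 154 to 442 TPM of the other 13, and its fibroblast sum of 1210 TPM was near the median of 1287 TPM over all libraries. The sum of 10 endothelial genes was the highest of all libraries, 163 TPM against 78.9 to 143 TPM elsewhere. In mean log2 CPM these genes were not highest there, at 4.92 against 5.56 in the rat B control and 5.43 in the rat A surgical library. The sum of 7 red blood cell genes was the lowest, 26773 TPM against at least 30859 TPM. Endothelial cells also make Fabp4, which had its highest TPM there, and their part in it was not tested.

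**Figure D3:**
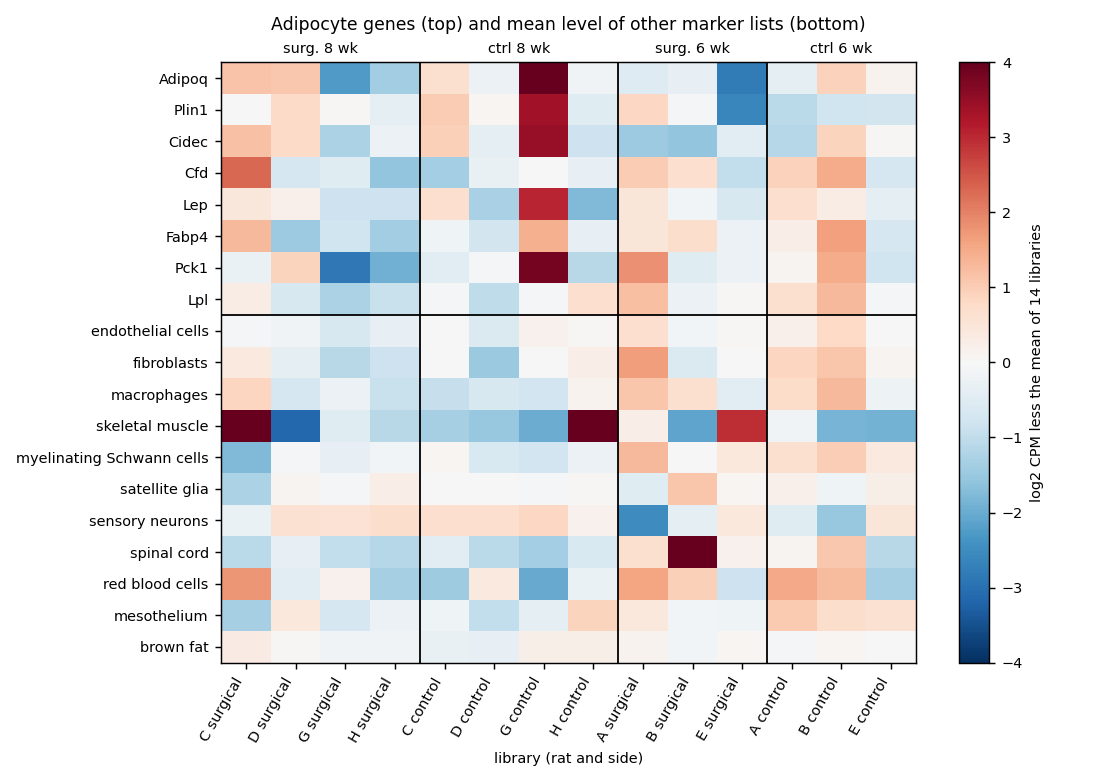
Level of the 8 genes (top 8 rows, log2 CPM) and mean log2 CPM of 11 marker lists (bottom rows) in each library, less the mean of that row over the 14 libraries; libraries are grouped by side and time, and colours stop at 4 and -4. The rat G control column is dark red for Adipoq, Plin1, Cidec, Lep and Pck1 and not for muscle or spinal cord. The muscle row is darkest red in the rat C surgical and rat H control libraries, with the rat E surgical library next.

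Correlations of log2 CPM over the 14 libraries are given for 2 sets of members, chosen after the values were seen. Within Adipoq, Plin1, Cidec, Lep and Pck1, the 10 pairs had Pearson r between 0.55 and 0.82 and Spearman rho between 0.27 and 0.78. Within Cfd, Fabp4 and Lpl, the 3 pairs had r between 0.59 and 0.78 and rho between 0.52 and 0.72. Between the 5 and the 3, the 15 pairs had r between -0.12 and 0.60 and rho between -0.38 and 0.63, so the ranges of the sets overlap.

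The first set rested in part on 1 library. Without the rat G control its pairs had r between 0.12 and 0.62 over 13 libraries, whereas the pairs of Cfd, Fabp4 and Lpl had r between 0.59 and 0.85. The pairs between the sets then had r between -0.16 and 0.66, up to values above any of the first set. Adipoq and Plin1 had a rho of 0.40 over 14 libraries and 0.25 without that library. These are descriptions over libraries that come in pairs from the same rats and share their depth and tissue content across genes, and no test was made.

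**Figure D4:**
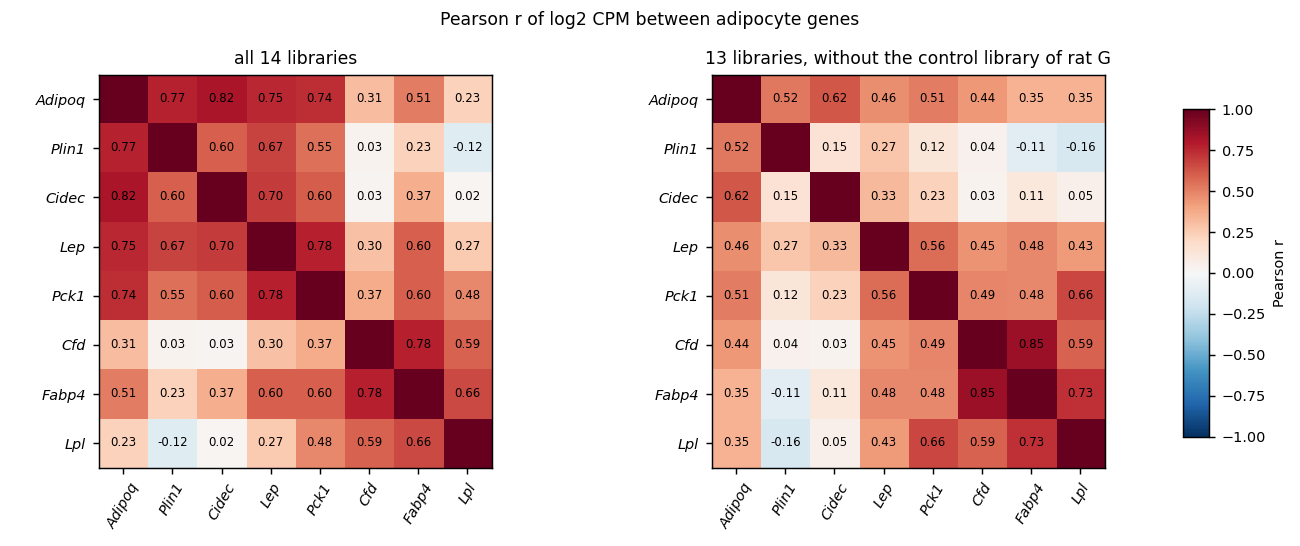
Pearson r of log2 CPM between pairs of the 8 genes over all 14 libraries (left) and over 13 libraries without the control library of rat G (right), with r printed in each square. The upper left square of Adipoq, Plin1, Cidec, Lep and Pck1 is paler on the right, where r runs between 0.12 and 0.62, than on the left, where it runs between 0.55 and 0.82.

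The genes most like the members were ranked by Pearson r with the mean log2 CPM of Adipoq, Plin1 and Cidec over the 14 libraries, among 14514 named genes whose TPM averaged 1 or more. The 10 highest were RT1-M3-1 (r = 0.82), Thrsp (0.81), Pdia5 (0.78), Tbc1d17 (0.77), Slco3a1 (0.76), Gtf3c5 (0.75), Lipe (0.73), Ip6k2 (0.72), Asl (0.72) and Wrnip1 (0.71). Of the 65 other adipocyte genes among those candidates, 2 were in the top 100, Thrsp and Lipe. Without the rat G control, 1 was, Thrsp, with r = 0.56, and Lipe had r = 0.18. Of the 10 genes named, RT1-M3-1 then ranked 2 and Tbc1d17 ranked 10. The others ranked between 91 (Thrsp) and 2983 (Lipe), so most of the 10 places rested on that 1 library.

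Whether the operated side carried more or less of these transcripts was tested within rats. No member passed an adjusted p under 0.05 in any comparison of the sides with edgeR's quasi-likelihood test. Over both times the surgical side was lower in the fit for all 7 tested members. Adipoq had a log2 difference of -1.23 (SE 0.96), Cidec -0.79 (SE 0.81), Pck1 -0.54 (SE 1.09), Fabp4 -0.41 (SE 0.41), Lpl -0.41 (SE 0.33), Plin1 -0.40 (SE 0.77) and Cfd -0.10 (SE 0.52), each with an edgeR adjusted p of 1. The median over the 7 was -0.41, against 0.00 over all genes tested. Of all genes, 0% passed the adjusted threshold and 2.42% (412) had an unadjusted p under 0.05, and 0 of the 7 members did. DESeq2 and limma also called 0 of the members in every comparison of the sides.

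That direction was not shared by all rats. The surgical library was the lower of the rat's pair, in log2 CPM, in 5 of 7 rats for Adipoq, Cfd and Lep, in 4 of 7 for Cidec and Fabp4, and in 3 of 7 for Plin1, Pck1 and Lpl. Without rat H the fitted difference of Cfd was 0.11. Without rat G, it was -0.58 for Adipoq, -0.16 for Cidec, -0.11 for Fabp4, 0.18 for Plin1 and 0.18 for Pck1. For Lep, which was not in the fit, the mean TPM differed by -0.139 (surgical minus control), lower in 4 of 7 rats in TPM, with a two-sided exact sign-flip p of 0.594 where 0.0156 is the smallest possible.

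At 8 weeks, 6 of the 7 tested members were lower on the surgical side in the fit, with Pck1 at -1.24 (SE 1.64), Adipoq at -0.96 (SE 1.41), Plin1 at -0.95 (SE 0.98), Fabp4 at -0.68 (SE 0.59), Lpl at -0.51 (SE 0.46) and Cidec at -0.37 (SE 1.12). Cfd was at 0.15 (SE 0.77). All had an edgeR adjusted p of 1, and over all genes 0% passed and 1.06% had an unadjusted p under 0.05. Single rats turned these values: without rat G Adipoq was at 0.25, Cidec at 0.74 and Pck1 at 0.19, and without rat C Cfd was at -0.70.

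At 6 weeks, Adipoq was at -1.52 (SE 1.48), Cidec at -1.35 (SE 1.30), Cfd at -0.35 (SE 0.78), Lpl at -0.28 (SE 0.53) and Fabp4 at -0.09 (SE 0.63) on the log2 scale, surgical minus control. Plin1 was at 0.56 (SE 1.28) and Pck1 at 0.17 (SE 1.63). The edgeR adjusted p was 0.999 for all 7, and over all genes 0% passed and 3.21% had an unadjusted p under 0.05. Without rat A, Plin1 was at -0.60 and Pck1 at -0.85, and without rat B Fabp4 was at 0.34 and Lpl at 0.32.

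The change between sides at 8 weeks less that at 6 weeks did not pass the threshold for any member. It was -1.51 (SE 1.61) for Plin1, -1.41 (SE 2.32) for Pck1, -0.59 (SE 0.86) for Fabp4 and -0.23 (SE 0.71) for Lpl. It was 0.99 (SE 1.69) for Cidec, 0.56 (SE 2.05) for Adipoq and 0.50 (SE 1.10) for Cfd, each of the 7 with an edgeR adjusted p of 1. Over all genes 0% passed here and 1.48% had an unadjusted p under 0.05. For Lep, the exact sign-flip p was 0.75 at 8 weeks and 0.5 at 6 weeks, and the two-sided exact permutation p of the difference was 0.829; the smallest possible were 0.125, 0.25 and 0.0286. Adjusted over its 6 comparisons, each Lep p was 0.886.

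**Figure D5:**
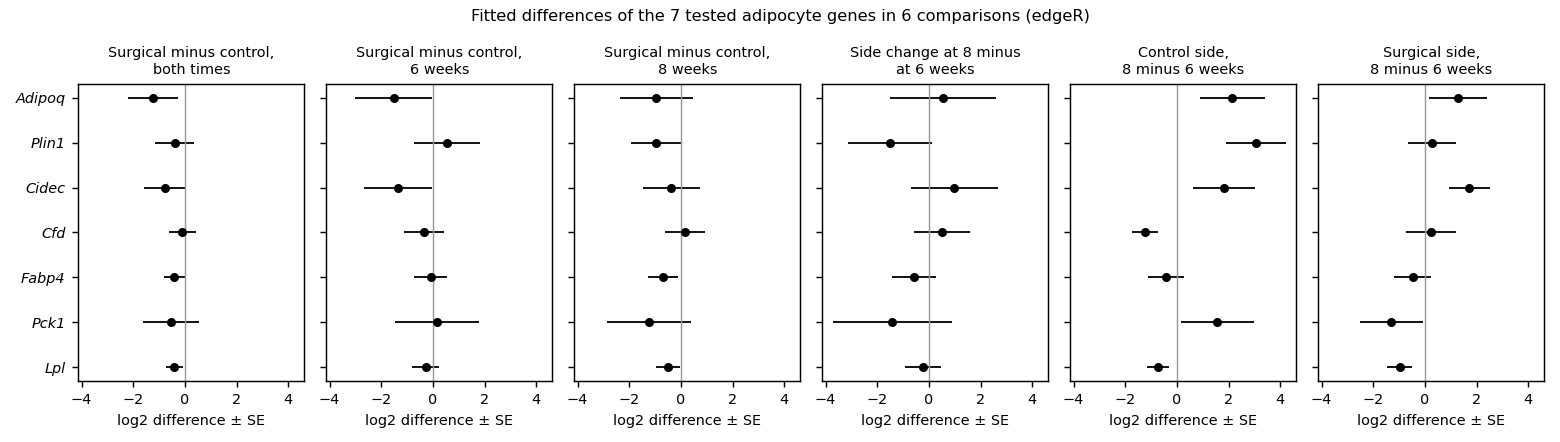
Log2 difference of each of the 7 tested genes in the 6 comparisons (x axis, points with bars of 1 SE, from edgeR), with a grey line at 0. In the surgical minus control panel over both times all 7 points lie left of 0, and in the control side panel Plin1 is the point farthest right, at 3.07.

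Times were compared between different rats, 1 side at a time. On the control side Plin1 was at 3.07 (SE 1.16), 8 weeks less 6 weeks on the log2 scale, with an edgeR quasi-likelihood p of 0.0307 and an adjusted p of 0.138. Adipoq was at 2.14 (SE 1.26), Cidec at 1.81 (SE 1.21) and Pck1 at 1.57 (SE 1.40), while Cfd was at -1.25 (SE 0.50), Lpl at -0.73 (SE 0.43) and Fabp4 at -0.42 (SE 0.68). Cfd had an unadjusted edgeR p of 0.0389. The edgeR adjusted p of the 7 ran between 0.138 and 0.659, so none passed, while DESeq2 called 1, Plin1, among 3096 genes called in all. Plin1 passed the count filter here only through 8-week libraries, so its p and its call are no independent support for a rise. Of all 16346 genes tested here 0.153% (25) passed and 31.2% had an unadjusted p under 0.05, as did 2 of the 7 members.

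For Plin1, TPM at 8 weeks lay above that at 6 weeks in every control library, a pattern that 36.2% of all genes tested showed, with 2.53% showing the reverse. The fold rests on few reads: the 6-week controls held 3 to 5 counts. It was 3.14 with DESeq2, 2.04 with limma on log2(TPM + 0.1) and 0.82 on log2(TPM + 1), a scale that understates changes of low genes. Plin1 passed the filter only through the 8-week control libraries of rats C, D and G, which held 23, 14 and 154 counts. Without the control library of rat C, D or G, Plin1 did not pass the filter. Without rat G, the difference was -0.21 for Adipoq, -0.05 for Cidec and -1.16 for Pck1.

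Markers of several cell types moved with these values on the control side. The summed level of sensory neuron markers was 14097 to 26686 TPM at 8 weeks and 2999 to 18658 TPM at 6 weeks, and all 16 markers were higher at 8 weeks in the fit, by a median of 0.74 on the log2 scale. In the same fit 10 of 10 macrophage markers had a negative difference, with a median of -1.14, as did 10 of 10 markers of myelinating Schwann cells (median -1.01), 10 of 10 of fibroblasts (median -0.84) and 10 of 10 of endothelial cells (median -0.38). Macrophages make Fabp4 and Lpl, and mouse sciatic nerve makes Cfd, and the part of these cells in the differences was not tested. With the mean neuron level as a covariate, Plin1 was at 1.80 (SE 1.96) and Cfd at 0.00 (SE 0.58). With the covariate 27 of all genes passed, against 25 without it.

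On the surgical side, Cidec was at 1.71 (SE 0.79), Adipoq at 1.29 (SE 1.13), Plin1 at 0.26 (SE 0.93) and Cfd at 0.24 (SE 0.96) at 8 weeks less 6 weeks on the log2 scale. Pck1 was at -1.30 (SE 1.21), Lpl at -0.98 (SE 0.47) and Fabp4 at -0.47 (SE 0.71). Their edgeR adjusted p ran between 0.671 and 0.941, with 0% of all genes past the threshold (0 of the 7 members with DESeq2 as well) and 6.56% with an unadjusted p under 0.05. Without rat C, Cfd was at -1.29 and Fabp4 at -1.57. Cidec passed the count filter on this side only through the 8-week libraries of rats C, D and H, with 32, 25 and 12 counts. Its difference is therefore no independent support for a rise. For Lep the two-sided exact permutation p was 0.886 on this side and 0.743 for the controls, where 0.0286 is the smallest possible.

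The other adipocyte genes split nearly evenly between the sides. Of the 70 tested beside the members, 0 passed the edgeR adjusted threshold in any comparison of the sides, and DESeq2 and limma also called 0. An unadjusted edgeR p under 0.05 was reached by 2 over both times, 1 at 8 weeks and 2 at 6 weeks. Over both times 31 had a positive and 39 a negative difference, with a median of -0.04. At 8 weeks the split was 29 and 41, also with a median of -0.04, and at 6 weeks 31 and 39 with a median of -0.05. For the change at 8 weeks less that at 6 weeks it was 39 and 31.

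The 3 of these genes with the smallest unadjusted p over both times were Sncg, a synuclein made by sensory neurons as well as fat cells, Mogat1, an enzyme of triglyceride synthesis, and Rarres2, the secreted chemerin. Sncg averaged 4679 ± 1908 TPM on the surgical side and 6746 ± 2481 TPM on the control side (SD, n = 7 each), lower in 7 of 7 rats, with a log2 difference of -0.57 (SE 0.17, edgeR adjusted p = 1). Mogat1 averaged 1.10 ± 0.411 TPM on the surgical side and 1.52 ± 0.499 TPM on the control side, lower in 7 of 7 rats, with a log2 difference of -0.53 (SE 0.21). Rarres2 was at -0.61 (SE 0.27), higher in 2 of 7 rats. Sensory neuron markers moved with Sncg: all 16 had a negative difference over both times, with a median of -0.19, and their part was not tested.

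At 8 weeks the 3 smallest were Nnat at -1.12 (SE 0.39), Sncg at -0.44 (SE 0.23) and Lipe at -0.46 (SE 0.24), the last lower on the surgical side in 4 of 4 rats. At 6 weeks they were Sncg at -0.74 (SE 0.26), the insulin receptor Insr at 0.54 (SE 0.19), higher in 3 of 3 rats, and Mogat1 at -0.77 (SE 0.33). For the difference of those changes they were Nnat (-1.37), Insr (-0.54) and Cidea (0.74). None passed the adjusted threshold with edgeR.

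Between times, 19 of 68 other adipocyte genes tested on the control side had an unadjusted p under 0.05, against 31.2% of all genes, and 0 passed with edgeR. DESeq2 called 11 of the 68, against 18.9% of all genes. Of the 68, 33 were positive and 35 negative, with a median of -0.02. All 8 adipocyte transcription factors had a negative difference there, with a median of -0.78, and 0 of the 8 passed; the macrophage, Schwann cell, fibroblast and endothelial markers given above were lower there too, and their part was not tested. The 3 smallest were caveolin Cav1 at -1.22 (SE 0.28), G0s2, an inhibitor of the lipase Pnpla2, at -1.32 (SE 0.31), and the peptide hormone gene Apln at -1.28 (SE 0.31), with edgeR adjusted p between 0.0888 and 0.0917. On the surgical side 40 were positive and 28 negative with a median of 0.10, and the 3 smallest were Apln at -1.60 (SE 0.59), Cidea at 0.89 (SE 0.33) and the brown fat gene Cox7a1 at 0.65 (SE 0.25), each with an edgeR adjusted p of 0.671.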

How the data were processed

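RNA was sequenced from 14 libraries of 7 rats, and groups were taken from the sample titles. The letters C and D are exchanged between titles and library names, which leaves the pairs intact; the title letters were used. The surgical title of rat C says replicate 1, and it was used as 2. Per the labels the molecule was polyA RNA, while the protocol names ribosomal depletion. The authors deposited estimated counts per gene, made with Salmon after Trim Galore per the submitters' processing notes, and all were whole numbers (0 non-whole values). The authors deposited TPM from the same tables, corrected for transcript length and library size; the genome build is not given in the sources used here.

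The test was that of edgeR 4.0.16 (R 4.3.3): filterByExpr with a minimum count of 10, TMM scaling and a robust quasi-likelihood fit, two-sided, with Benjamini-Hochberg adjustment over all tested genes and a threshold of 0.05. Sides were compared with the rat as a block over 14 libraries, because both libraries came from the same animal. Deviations from group means correlated between -0.41 (rat C) and 0.75 (rat E) within rats, and were negative in rats B, C, D and H. Times were compared on the 7 libraries of one side, with no block. SE is the size of the log2 difference divided by the square root of F. Lep was tested on TPM by exact sign flips or permutations. Alternatives were DESeq2 1.42.0 and its size factors, other filters, limma 3.58.1 on log2(TPM + 1) or log2(TPM + 0.1) for genes averaging 0.5 TPM, no block, a neuron covariate of 16 genes, and rats left out. The scripts were tested on simulated data. Genes were named by rule: all 8 members, the 3 other adipocyte genes with the smallest p in each comparison, and the 10 genes most like the members; the libraries and genes singled out for a high value were chosen after their values were seen. The members and lists were chosen with earlier results of these data known. Total counts of 18489118 to 28237574 per library limit the precision of genes with few reads, and limits on counts of 0 (3 counts) cover counting error only. Rats are separate animals, 3 at 6 weeks and 4 at 8 weeks.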

Additional observations from a re-analysis of the deposited data

Results flagged for a closer look

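In the 8-week groups of 4 libraries, 9 of 18 sets of values had a library whose gap to its nearest neighbour exceeded the 95% critical share of 0.829 of the whole range. For normally distributed values chance flags about 1 in 20 such sets, and the distribution of these TPM values was not tested. No share over all genes is given here, so the count is a description. The sets are not independent, because the same libraries recur and the sum holds Adipoq, Plin1 and Cidec again. Among all genes tested, the rat G control was the highest of the 14 libraries for 22.0% and the rat C surgical library for 17.7%. 7 of the 9 were the control library of rat G. It had 23.4 TPM of Adipoq where the next control had 2.15, 3.98 TPM of Plin1 where the next had 0.767, and 6.55 TPM of Cidec where the next had 1.08. It also had 1.03 TPM of Lep where the next control had 0.170, 153.0 TPM of Fabp4 where the next had 49.8, and 5.05 TPM of Pck1 where the next had 0.290. The sum of Adipoq, Plin1 and Cidec was 34.0 TPM there and 4.00 TPM in the next control.

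The other 2 were the surgical library of rat C, with 182.0 TPM of Cfd where the next surgical library had 33.2, and 102.0 TPM of Fabp4 where the next had 29.4. Lpl was not among these results in either group. The part of fat or other tissue taken with the ganglia in these values was not tested.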

How the results depend on the processing

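Over 42 member differences in 6 comparisons, 636 values under other settings were computed. Of these values, 578 kept the direction and the side of the threshold, 56 changed sign and 2 passed the threshold where the reported value did not. Among the 42 differences, 25 changed sign under at least 1 setting. No member passed in any comparison of the sides, or between times on the surgical side, under any setting. On the control side, 8 against 6 weeks, 1 member passed with DESeq2 (Plin1, 3.14, SE 1.06, adjusted p = 0.0255). Plin1 passed the count filter there only through 8-week libraries. Leaving out each rat gave 0 to 1 members, the 1 being Cfd without rat E (-1.58, SE 0.35, edgeR adjusted p = 0.0166). In that setting 6388 of all genes passed. With other tools the number of all genes called differed: DESeq2 called 6 over both times, 4 at 8 weeks, 44 at 6 weeks, 5 for the difference of the side changes, 3096 between times for the controls and 8 for the surgical libraries, where edgeR called 0, 0, 0, 0, 25 and 0. limma on log2(TPM + 1) and log2(TPM + 0.1) called 8 and 13 between times for the controls and 3 and 4 for the surgical libraries. Without the replicate block the calls were 0, 0, 2 and 0 in the comparisons of the sides (both times, 8 weeks, 6 weeks, difference), and 0 members.

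For the surgical against control difference over both times, Cfd changed sign with limma on log2(TPM + 1) and log2(TPM + 0.1), 0.090 and 0.087, and without the replicate block, 0.49. At 8 weeks Cfd was -0.44 without rats B, C and H. At 6 weeks Fabp4 was 0.11 with either limma setting, and without rats B, C and H Fabp4 was 0.33 and Lpl 0.32; with the neuron covariate Pck1 was -0.26. For the difference of the side changes, Adipoq was -0.56, -0.40, -0.82 and -0.86, and Cidec -0.32, -0.051, -1.36 and -0.10, with limma on log2(TPM + 1), limma on log2(TPM + 0.1), without rats B, C and H and without the replicate block; Cfd was -0.32 without rats B, C and H. Between times on the control side Fabp4 was 0.23 and 0.24 with limma, 0.86 without rats B, C and H and 0.86 with the neuron covariate, with which Lpl was 0.16. On the surgical side Cfd was -0.068 and -0.075 with limma and -0.90 without rats B, C and H, and with the neuron covariate Fabp4 was 0.0035 and Pck1 0.079. The cause was not tested.

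Leaving out each rat in turn, these ranges crossed 0. Over both times: Plin1 -0.85 to 0.18, Cfd -0.53 to 0.11, Pck1 -1.07 to 0.18. At 8 weeks: Adipoq -2.17 to 0.25, Cidec -1.11 to 0.74, Cfd -0.70 to 0.74, Pck1 -2.70 to 0.19. At 6 weeks: Plin1 -0.60 to 1.62, Fabp4 -0.38 to 0.34, Pck1 -0.85 to 1.36, Lpl -0.72 to 0.32. For the difference of the side changes: Adipoq -0.65 to 1.79, Cfd -0.35 to 1.09, Pck1 -2.87 to 0.012, Lpl -0.82 to 0.22. Between times on the control side: Adipoq -0.21 to 2.602, Cidec -0.049 to 2.46, Fabp4 -1.14 to 0.49, Pck1 -1.16 to 2.55. Between times on the surgical side: Plin1 -0.28 to 1.25, Cfd -1.29 to 0.63.

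Plin1 had no value under 14 settings, Cidec under 8, Pck1 under 6 and Adipoq under 1, because they failed the filter there. Members other than Cfd, Fabp4 and Lpl had at most 46 counts in every library outside the rat G control, which limits their precision. Leaving the rat G control out of the correlations was chosen after the data were seen.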
